A study of Mus musculus with 8 samples.

Results

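The muscle miRNAs miR-1, miR-133 and miR-206 were followed through small RNA libraries of isolated mouse cardiomyocytes. The members were taken by name: mmu-miR-1a-3p and mmu-miR-1a-1-5p, mmu-miR-133a-3p and mmu-miR-133a-5p, mmu-miR-133b-3p, and mmu-miR-206-3p, written without the species prefix from here on. All 6 names were found among the 697 mature miRNAs counted, and 5 of the 6 were among the 223 with a mean above 100 counts per library, which were tested. miR-1a-1-5p, with a mean of 25.8 counts, was not among them. The libraries came from 4 sham-operated mice and 4 mice with transverse aortic constriction (TAC), a banding of the aorta that loads the left ventricle with pressure until the heart fails. Per the study's methods, the mice were male and operated at 2 months of age, and the hearts were perfused to free the cardiomyocytes. The methods place echocardiography at 14 weeks after surgery, and the figure legends place the ventricle and lung weights there too. The methods also call the mice 14 weeks old when the hearts were taken, which conflicts with this, so the time from surgery to isolation stays uncertain. Anaesthesia for surgery was with ketamine and xylazine, no transgene is named for either group, and the strain is not given in the sources used here. The cells of 1 heart were split into 4 tubes, 1 of them for miRNA sequencing, so each library stands for 1 mouse.

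miR-1 and miR-133 are the classic muscle miRNAs, transcribed together in pairs of hairpins from the same primary RNAs under muscle transcription factors. miR-1 is known to favour differentiation of heart and skeletal muscle, and miR-133 to restrain growth and the smooth muscle programme. miR-206 carries the seed of miR-1 and is known as a miRNA of skeletal muscle, where it is transcribed near miR-133b. A miRNA pairs with its target mRNAs mainly through the seed, bases 2 to 8 from its 5′ end, and the 2 arms of a hairpin (5p and 3p) are different small RNAs, released as Drosha and then Dicer cut the precursor.

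RefSeq mature sequences (GRCm38.p6) were matched for 3 of the 6 members. They show the seeds of these 3 matched members only, written in capitals, and the pair from the Lincmd1 locus that shares a transcript but no seed:
miR-206-3p: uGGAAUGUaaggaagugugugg
miR-133b-3p: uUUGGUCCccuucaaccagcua
miR-1a-1-5p: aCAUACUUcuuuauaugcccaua
miR-206-3p lies at chr1:20679055-20679076, miR-133b-3p at chr1:20682834-20682855 and miR-1a-1-5p at chr2:180389057-180389079, all on the plus strand. miR-133b-3p has nearly the sequence of miR-133a-3p. How tags that fit both were assigned is not given in the sources used here, so the split between these entries is uncertain.

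The members lie in 3 pairs of hairpins in GRCm38 (mm10). Mir1a-1 (chr2:180389048-180389124) and Mir133a-2 (chr2:180398379-180398482) are on the plus strand, 9254 bases apart, within the RefSeq host transcript Mir1a-1hg. Mir1a-2 (chr18:10785481-10785552) and Mir133a-1 (chr18:10782909-10782976) are on the minus strand, 2504 bases apart, in an intron of Mir133a-1hg and opposite an intron of Mib1. Mir206 (chr1:20679010-20679082) and Mir133b (chr1:20682769-20682887) are on the plus strand, 3686 bases apart, in the long non-coding RNA that GENCODE names Gm28653 and RefSeq names Lincmd1. There Mir133b falls in an exon, and Mir206 in an intron and partly in an exon. miR-1a-3p and the miR-133a arms can come from either of their hairpins, so their counts do not tell the chromosome 2 and chromosome 18 copies apart, whereas miR-1a-1-5p belongs to Mir1a-1 alone.

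The miRNA tags per library ran from 4005668 to 5392576 in sham and from 5507169 to 7798943 in TAC. Values are given as CPM, tags per 1000000 miRNA tags of the library. The study uses miR-19b-3p and miR-126a-3p as its reference, and its methods describe this pair as unaltered, checked by QPCR. By QPCR with snoRNA controls, the study also reports miR-1a among the miRNAs upregulated after TAC. In these libraries the CPM of the reference pair were lower in TAC. To scale to the pair, the TAC values were divided by 0.537, which adds 0.90 to every log2 fold change. The median log2 fold change of the 223 miRNAs was then 0.61. It was -0.082 with TMM (edgeR's trimmed mean of M values) and -0.29 with library totals, so the change of each member is given under all 3 scalings. A miRNA was called higher or lower where the adjusted p was below 0.05 and the change exceeded 1.7-fold. Markers of cardiomyocytes (miR-208a-3p, miR-208b-3p and miR-499-5p) were present in every library, at 1117 to 1448 CPM summed in sham and 1185 to 1314 in TAC. Both endothelial markers, miR-126a-3p among them, summed to 49248 to 72051 CPM in sham and 29274 to 34557 in TAC, and the 3 leukocyte markers to 623 to 924 and 158 to 553. The 3 erythroid markers summed to 418 to 1503 and 43.8 to 550.0 CPM, and the 5 fibroblast and smooth muscle markers to 41702 to 49646 and 36697 to 43821. The 6 epithelial markers were highest in TAC4, at 1406 CPM against 223 to 401 in the other libraries. The 3 pancreas markers were also highest in TAC4, at 88.9 CPM against 14.1 to 33.0 in the other libraries. None of the markers was at 0 in any library except 1 of the pancreas list. The part of these other cells in the results below was not tested. In such bulk samples, fewer cells of a type and less RNA per cell cannot be told apart.

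In both groups the members stood in an order of level that spanned from the most abundant miRNA of the library to a trace. miR-1a-3p ranked 1 in each of the 8 libraries, and miR-133a-3p ranked 3 over all libraries. miR-133b-3p ranked 38, miR-133a-5p ranked 55 and miR-206-3p ranked 87 of the 223 tested. Neighbours in this order did not overlap in TAC. In sham, miR-133a-5p and miR-206-3p overlapped, because Sham2 held more miR-206-3p than miR-133a-5p. miR-1a-1-5p stayed far below the other members. Tag counts of different miRNAs were not corrected for how readily each is cloned, so the order is one of tags.

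**Figure D1:**
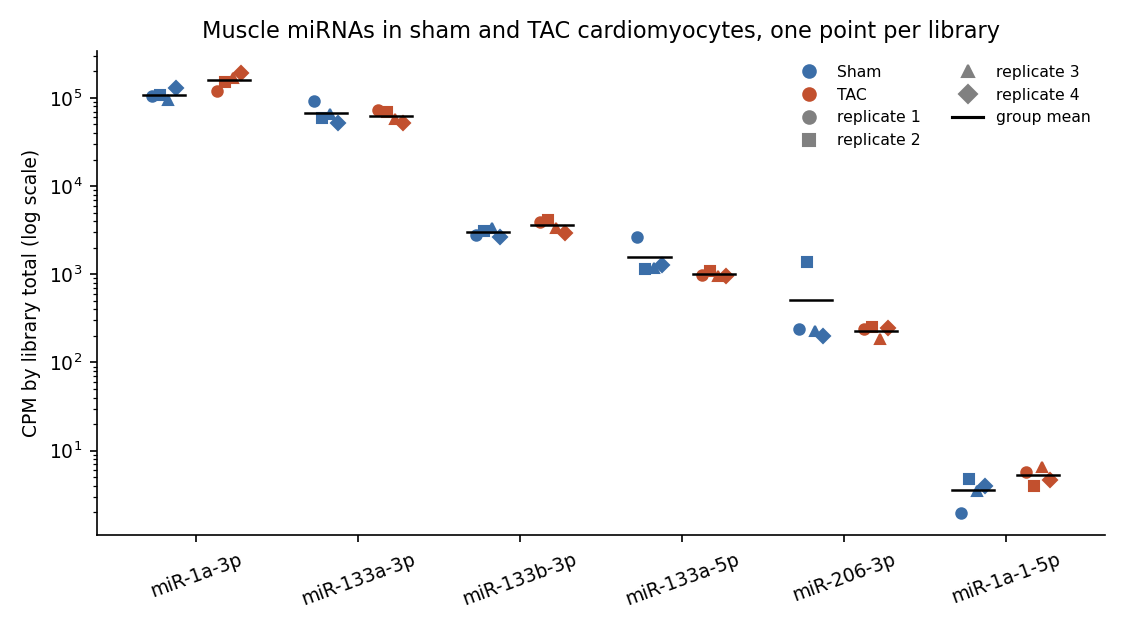
CPM by library total (log axis) of the 6 muscle miRNAs in 4 sham (blue) and 4 TAC (red) libraries, with the replicate number as marker shape and the group mean as a line. miR-1a-3p is at the top in every library, Sham2 stands apart for miR-206-3p (1390.1 CPM) and Sham1 for miR-133a-5p (2641 CPM).

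miR-1a-3p, the main miR-1 product, had the largest log2 fold change of the tested members. Its CPM by library total were 104229, 108024, 93974 and 128433 in Sham1 to Sham4 and 121046, 150985, 168060 and 192386 in TAC1 to TAC4. Only TAC1 fell within the sham range, below Sham4, and the other TAC libraries were above all sham libraries. Scaled to the reference miRNAs, the TAC libraries held 225491, 281261, 313071 and 358385 CPM, all above sham. The log2 fold change was 1.44 (standard error 0.15, adjusted p = 8.20e-05, edgeR quasi-likelihood test with Benjamini-Hochberg adjustment), rank 13 of 223. The exact permutation test of the reference-scaled values, which derived the factor afresh for every arrangement, gave p = 0.0286, the smallest that 4 libraries against 4 allow. By TMM it came to 0.74 on the log2 scale (standard error 0.16, adjusted p = 0.0196), and library totals gave 0.54 (standard error 0.15, adjusted p = 0.0318), both in edgeR and both under the 1.7-fold threshold for a call. On CPM by library total, where the groups overlapped through TAC1, the exact permutation p was 0.0571. miR-1a-3p was thus the member with an adjusted p below 0.05 under each of the 3 scalings, although with TMM the adjusted p in edgeR was 0.0583 without Sham3 and 0.0601 without TAC2.

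miR-133b-3p, transcribed with miR-206, was higher in TAC by the reference scaling. Its CPM by library total were 2782, 3108, 3384 and 2652 in Sham1 to Sham4 and 3961, 4137, 3304 and 2957 in TAC1 to TAC4. TAC1 and TAC2 were above every sham library, and TAC3 and TAC4 lay within the sham range. After reference scaling the TAC values were 7379, 7706, 6155 and 5509 CPM, all above sham, and the log2 fold change was 1.17 (standard error 0.14, adjusted p = 1.63e-04, edgeR), rank 21 of 223. It was 0.49 with TMM (standard error 0.15, adjusted p = 0.0529), and library totals gave 0.27 (adjusted p = 0.186), both in edgeR. DESeq2 with its own size factors gave 0.53 (adjusted p = 0.00643), under the fold threshold. With TMM and 1 library left out, the adjusted p in edgeR ran from 0.0151 without TAC4 to 0.141 without TAC2. The exact permutation p was 0.0286 with the factor derived afresh for every arrangement and 0.143 on CPM by library total. Here the call rested on the reference scaling.

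miR-133a-3p, the main miR-133 product, took overlapping shares of the libraries in sham and TAC. Its CPM by library total were 92653, 59073, 65620.4 and 52077 in Sham1 to Sham4 and 72166, 69299.6, 56846 and 52363 in TAC1 to TAC4. Sham1 held the highest value of all 8 libraries, and the groups overlapped. The reference-scaled TAC values, 134435, 129095, 105895 and 97545 CPM, were all above sham, but TAC4 exceeded Sham1 by little. The log2 fold change was 0.79 (standard error 0.18, adjusted p = 0.00444, edgeR), a fold of 1.73 that just passes the threshold of 1.7. The exact permutation test that derived the factor afresh for every arrangement, not on these fixed values, gave p = 0.0857. TMM gave a log2 fold change of 0.12 (adjusted p = 0.688), and library totals gave -0.10 (adjusted p = 0.685), both in edgeR. The call was lost, with log2 fold changes of 0.65 to 0.73, without any 1 of Sham2, Sham3, Sham4, TAC1 or TAC2, and without Sham1 the log2 fold change was 1.10 (adjusted p = 2.53e-04, edgeR). It was also lost with miR-126a-3p as the only reference (0.69, adjusted p = 0.0108, edgeR, under the fold threshold) and with 1 reference factor per library (0.71, adjusted p = 0.0541, edgeR).

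miR-133a-5p, the minor arm of the same hairpins, did not pass the test under any of the 3 scalings. Its CPM by library total were 2641, 1151, 1178 and 1260.2 in Sham1 to Sham4 and 992, 1083, 946 and 968 in TAC1 to TAC4. Every TAC library was below every sham library, and Sham1 stood apart at 2.10 times the next highest of all libraries. Of the 223 tested miRNAs, 27.4% had all TAC libraries below sham by library total, as miR-133a-5p did (exact permutation p = 0.0286). The log2 fold change was 0.25 by the reference scaling (standard error 0.26, adjusted p = 0.400), -0.43 with TMM (standard error 0.26, adjusted p = 0.277) and -0.64 with library totals (standard error 0.26, adjusted p = 0.0996), all in edgeR. The sign turned with the scaling. Without Sham1 the reference-scaled log2 fold change was 0.75 (standard error 0.11, adjusted p = 4.59e-04, edgeR), a fold of 1.68, under 1.7, and that with TMM was -0.019 (adjusted p = 0.922, edgeR).

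miR-206-3p is the skeletal muscle member of the miR-1 seed family, and the direction of its difference depended on 1 library. Its counts were 1112, 7496, 1124 and 796 in Sham1 to Sham4 and 1324, 1955, 1165 and 1755 in TAC1 to TAC4. As CPM by library total these were 240.3, 1390.1, 229 and 199 in sham and 240.4, 251, 184 and 243 in TAC. Sham2 held 5.55 times the next highest of all libraries, and the other 7 libraries lay between 184 and 251 CPM. Over all libraries the log2 fold change was -0.27 (standard error 0.58, adjusted p = 0.700), by TMM -0.93 (adjusted p = 0.290) and by library totals -1.17 (adjusted p = 0.172), all in edgeR. Without Sham2 it turned to 0.86 (standard error 0.17, adjusted p = 0.00435, edgeR), a call, and to 0.26 with TMM (standard error 0.17, adjusted p = 0.328, edgeR). DESeq2 gave no p for this miRNA because it marked an outlying count.

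miR-1a-1-5p, the minor arm of Mir1a-1, was counted 9, 26, 17 and 16 times in Sham1 to Sham4 and 32, 31, 41 and 34 times in TAC1 to TAC4. Every TAC count was above every sham count, in deeper libraries. As CPM these were 1.94, 4.82, 3.46 and 3.99 in sham and 5.81, 3.97, 6.47 and 4.71 in TAC, and the groups overlapped. Fitted with the 409 miRNAs over a mean of 10 counts, the log2 fold change was 1.44 by the reference scaling (standard error 0.34, adjusted p = 0.00573), 0.85 by TMM (adjusted p = 0.143) and 0.55 by library totals (adjusted p = 0.282), all in edgeR. Only the first was a call, as for 29.8% of those 409 miRNAs.

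Counted together, 3 of the 5 tested members (miR-1a-3p, miR-133b-3p and miR-133a-3p) were called higher by the reference scaling, and 0 were called lower, in edgeR as in DESeq2 and also by unadjusted p. Of all tested miRNAs, 36.8% were called higher and 0.897% lower there, and 63.7% had a higher level at an adjusted p below 0.05 alone, the same 3 members among them. With TMM, 0 of the 5 were called in either direction, against 1.35% of all tested miRNAs called higher and 4.48% lower. With no fold required, 1 of the 5 had an adjusted p below 0.05 and a higher level (4.93% of all) and 0 a lower one (8.52%). At an unadjusted p below 0.05, TMM in edgeR had 2 of the 5, miR-1a-3p and miR-133b-3p, and 66 of all 223 in either direction. With library totals, 0 were called, against 0.448% and 10.3%, and at an unadjusted p below 0.05 there were 2 of the 5 in edgeR, miR-1a-3p and, on the lower side, miR-133a-5p, and 83 of all 223 in either direction. DESeq2 with its own size factors called 1, miR-1a-3p, with a log2 fold change of 0.80 (adjusted p = 0.00155), against 2.24% called higher and 4.04% lower. The median log2 fold change of the 5 was 0.79 by the reference scaling, beside 0.61 for all 223, 0.12 with TMM beside -0.082, and -0.10 with library totals beside -0.29. By the reference scaling every TAC library was above every sham library for miR-1a-3p, miR-133a-3p and miR-133b-3p, a position that 54.7% of the tested miRNAs held. By library total it held for 0 of the 5, and for 3.59% of all.

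**Figure D2:**
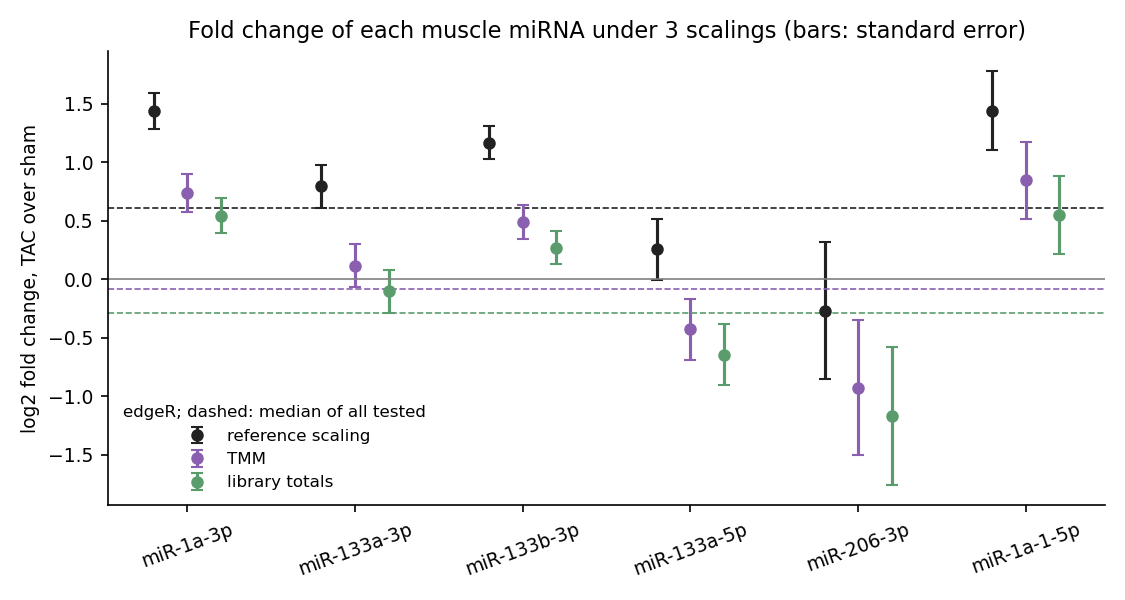
Log2 fold change of TAC over sham in edgeR for each muscle miRNA, with bars for the standard error, under reference scaling (black), TMM (purple) and library totals (green), and the median of the tested miRNAs as dashed lines. miR-1a-3p is above 0 under all 3 (1.44, 0.74 and 0.54), whereas miR-133a-5p turns from 0.25 to -0.43 and -0.64.

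Since 1 scaling factor moves all members of a library together, 6 ratios between members were taken within each library, where the factor cancels. Of all 24753 pairs of tested miRNAs, 21.7% had ratios whose groups did not overlap. The first ratio set the main products of the paired miR-1 and miR-133a hairpins against each other. The tags of miR-133a-3p per 100 of miR-1a-3p were 88.9, 54.7, 69.8 and 40.5 in Sham1 to Sham4 and 59.6, 45.9, 33.8 and 27.2 in TAC1 to TAC4. The groups overlapped, and the log2 difference of -0.61 did not pass the two-sided exact permutation test (p = 0.143, 0.171 adjusted over the 6 ratios).

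The ratio of miR-133b-3p to miR-133a-3p compared 2 nearly identical miRNAs of different loci. How tags that fit both were assigned is not given, so this ratio may not separate the loci. Per 100 tags of miR-133a-3p there were 3.003, 5.26, 5.16 and 5.09 tags of miR-133b-3p in Sham1 to Sham4 and 5.49, 5.97, 5.81 and 5.65 in TAC1 to TAC4. Every TAC library was above every sham library, and Sham1 lay far below the rest. The log2 difference was 0.34 (exact permutation p = 0.0286, 0.129 adjusted over the 6 ratios), and 0.15 without Sham1 (exact p = 0.0286). Without any 1 of the TAC libraries it was 0.32 to 0.36 (exact p = 0.114 each). So miR-133a-3p exceeded miR-133b-3p 16.8 to 33.3 times over the 8 libraries.

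The ratios of miR-206-3p rested on Sham2. Per 100 tags of miR-133b-3p, its neighbour on chromosome 1, there were 8.64, 44.7, 6.77 and 7.49 tags of miR-206-3p in Sham1 to Sham4 and 6.07, 6.06, 5.56 and 8.22 in TAC1 to TAC4. The log2 difference was -0.89 (exact permutation p = 0.0857, 0.129 adjusted) and -0.25 without Sham2 (exact p = 0.171). Within the miR-1 seed family, miR-206-3p stood at 0.231, 1.29, 0.244 and 0.155 tags per 100 of miR-1a-3p in sham and 0.199, 0.166, 0.109 and 0.126 in TAC. That log2 difference was -1.15 (exact permutation p = 0.0857, 0.129 adjusted) and -0.49 without Sham2 (exact p = 0.143). miR-1a-3p exceeded miR-206-3p 77.7-fold in Sham2 and 410.2-fold to 915-fold in the other libraries.

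The 2 arms of the miR-133a hairpins were also set against each other. Per 100 tags of miR-133a-3p there were 2.85, 1.95, 1.80 and 2.42 tags of miR-133a-5p in Sham1 to Sham4 and 1.38, 1.56, 1.66 and 1.85 in TAC1 to TAC4. TAC4 lay just above Sham3, and otherwise TAC was below sham. The log2 difference was -0.47 (exact permutation p = 0.0571, 0.129 adjusted over the 6 ratios). Among 111 hairpins with both arms counted it ranked 23 from the lowest, with an adjusted p of 0.182 in limma and a 95% interval of -0.84 to -0.093. Of these 111 arm ratios 4.5% were called in either direction and 2.7% with the 5p arm lower in TAC, the median log2 difference was -0.076, and neither member pair was among those called. The arms of miR-1 differed far more in level. There were 18.7, 44.6, 36.9 and 31.1 tags of miR-1a-1-5p per 1000000 of miR-1a-3p in sham and 48.0, 26.3, 38.5 and 24.5 in TAC. The groups overlapped over nearly their whole range, with a log2 difference of 0.079 (exact permutation p = 0.83, and 0.83 adjusted). The limma estimate was 0.052 with a 95% interval of -0.46 to 0.56, so changes within that interval were not excluded in either direction. Both 95% intervals are normal approximations from the limma standard error, which are too narrow for so few libraries.

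**Figure D3:**
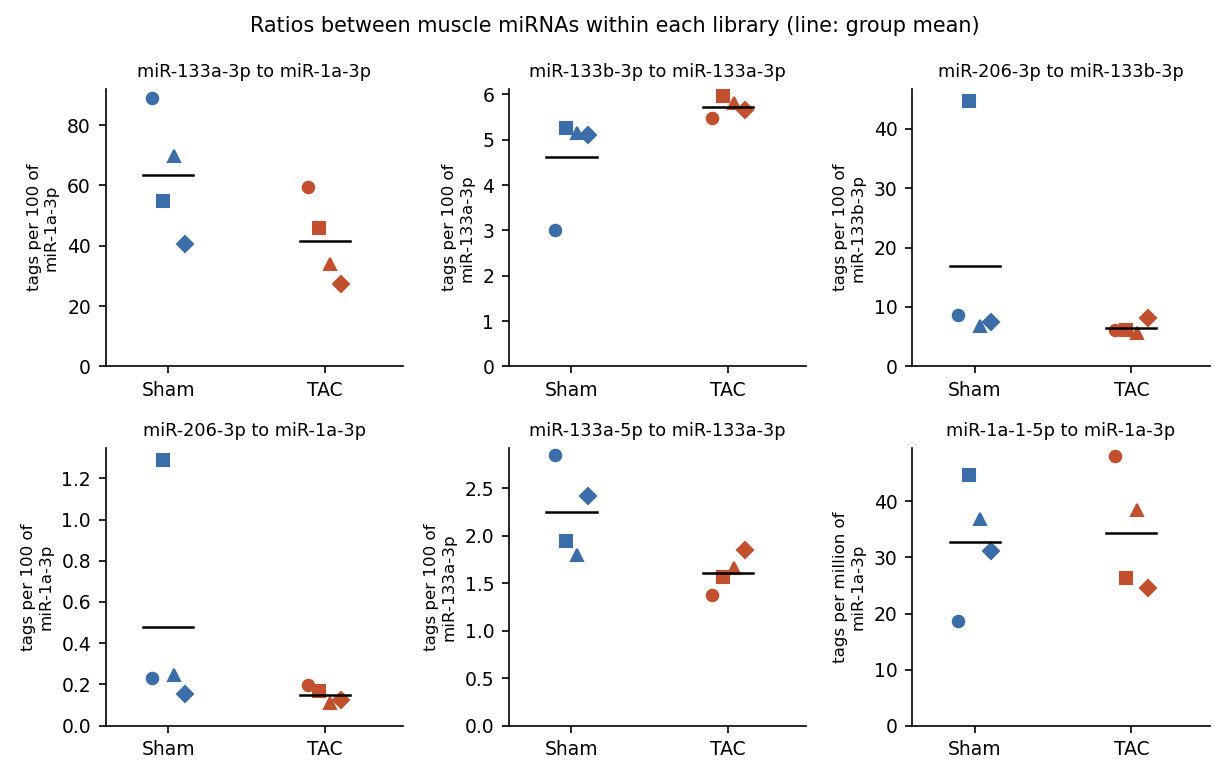
The 6 ratios between muscle miRNAs in each library (tags per 100, or per 1000000 for the miR-1 arms), with sham in blue, TAC in red, replicate number as marker shape and the group mean as a line. miR-133b-3p to miR-133a-3p is the ratio whose groups do not overlap, and Sham2 stands apart in both miR-206-3p ratios (44.7 and 1.29).

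Together the 6 members took 20.3%, 17.3%, 16.4% and 18.5% of all miRNA tags in Sham1 to Sham4 and 19.8%, 22.6%, 22.9% and 24.9% in TAC1 to TAC4. TAC1 was below Sham1, and the other TAC libraries were above all sham libraries. The means were 18.1% ± 1.65 (SD, n = 4) and 22.6% ± 2.08 (SD, n = 4), a difference of 4.45 percentage points (two-sided exact permutation test, p = 0.0571). With any 1 library left out the difference was 3.68 to 5.36 points (exact p 0.0286 to 0.0857). The largest difference and lowest p came without TAC1, the library that made the groups overlap. The miR-1 seed family, miR-1a-3p with miR-206-3p, took 10.4%, 10.9%, 9.42% and 12.9% in sham and 12.1%, 15.1%, 16.8% and 19.3% in TAC, a difference of 4.92 points (exact p = 0.0571). With any 1 library left out it was 3.77 to 6.15 points (exact p 0.0286 to 0.0857), again largest without the overlapping TAC1. The miR-133 family, miR-133a-3p with miR-133b-3p, took 9.54%, 6.22%, 6.90% and 5.47% in sham and 7.61%, 7.34%, 6.01% and 5.53% in TAC, a difference of -0.41 points (exact p = 0.771). miR-1a-3p alone differed by 4.95 points.

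**Figure D4:**
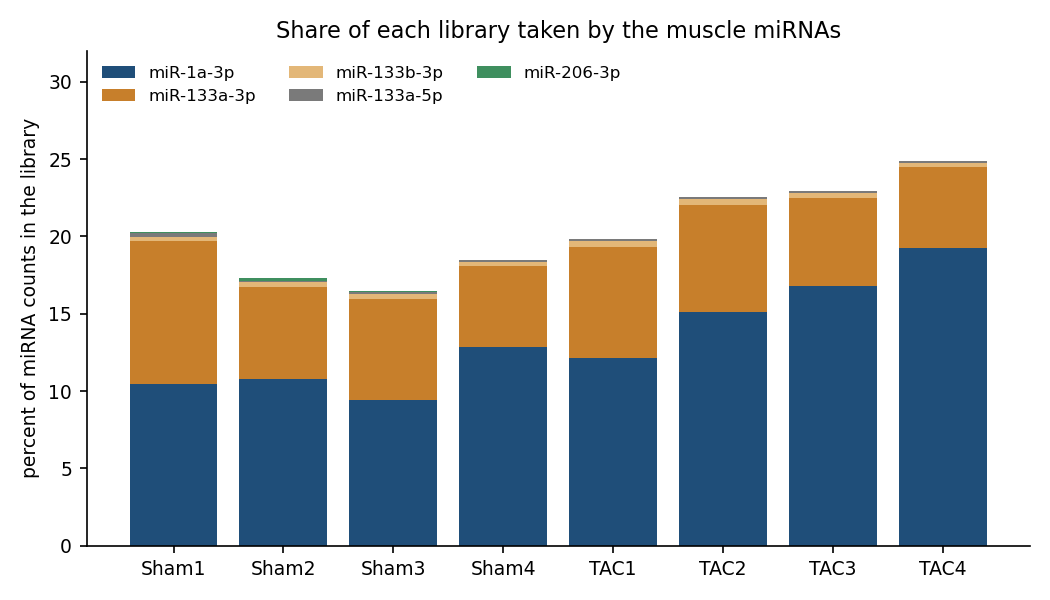
Percent of miRNA tags taken by 5 muscle miRNAs in each library (stacked bars from 0; miR-1a-1-5p is too rare to draw). The miR-1a-3p segment is 9.40% to 12.8% in sham and 12.1% to 19.2% in TAC, and the miR-133a-3p segment is largest in Sham1 at 9.27%.

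Libraries of 1 group varied unequally for the members. The SD of log2 CPM within sham was 1.33 for miR-206-3p, 0.57 for miR-133a-5p, 0.36 for miR-133a-3p, 0.19 for miR-1a-3p and 0.16 for miR-133b-3p, with a median of 0.25 over the tested miRNAs. Within TAC it was 0.21, 0.085, 0.22, 0.28 and 0.23 in the same order, with a median of 0.22. The wide spread of miR-206-3p and miR-133a-5p was therefore found in sham, in 1 library each.

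Sham2 and Sham1 also differed from the other sham libraries in miRNAs outside the family. In Sham2, miR-206-3p was 6.07 times the median of the other sham libraries and miR-381-3p 5.83 times, followed by miR-409-5p (3.44 times) and miR-136-3p (3.21 times). miR-133b-3p, transcribed with miR-206, was 1.12 times that median there, miR-1a-3p 1.04 times and miR-133a-3p 0.90 times. In Sham1, miR-6240 was 2.81 times the median of the other sham libraries, followed by miR-378b (2.73 times), miR-34a-5p (2.53 times) and miR-29b-2-5p (2.47 times). miR-107-3p was at 2.39 times. In this order miR-133a-5p ranked 7, at 2.24 times, and miR-133a-3p ranked 25, at 1.57 times.

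The miRNAs most alike each member were found by the SD of the log2 ratio over the 8 libraries, among the 218 other tested miRNAs, as a description. For miR-206-3p they were miR-381-3p (SD 0.37), miR-10b-5p (0.53) and miR-409-5p (0.54), against a median of 0.95. miR-381-3p stood at 24.8, 144.8, 31.6 and 19.97 CPM in Sham1 to Sham4 and between 15.1 and 21.1 CPM in TAC, so the likeness was carried by Sham2. For miR-133a-5p they were miR-107-3p (0.15), miR-103-3p (0.18) and miR-34a-5p (0.19), against a median of 0.52, all highest in Sham1. For miR-133a-3p they were miR-29c-3p (0.13), miR-149-5p (0.17) and miR-744-5p (0.17), for miR-133b-3p miR-30c-1-3p, miR-345-5p and miR-1198-5p (0.15 each), and for miR-1a-3p let-7a-5p (0.28), miR-23b-3p (0.30) and miR-155-5p (0.30). Between members the SD was larger, at 0.32 for miR-133a-3p with miR-133b-3p, 0.34 for its 2 arms, 0.41 for miR-1a-3p with miR-133b-3p and 0.56 for miR-1a-3p with miR-133a-3p, so no member was among the 3 most alike another. All these values share library totals and 8 libraries.

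**Figure D5:**
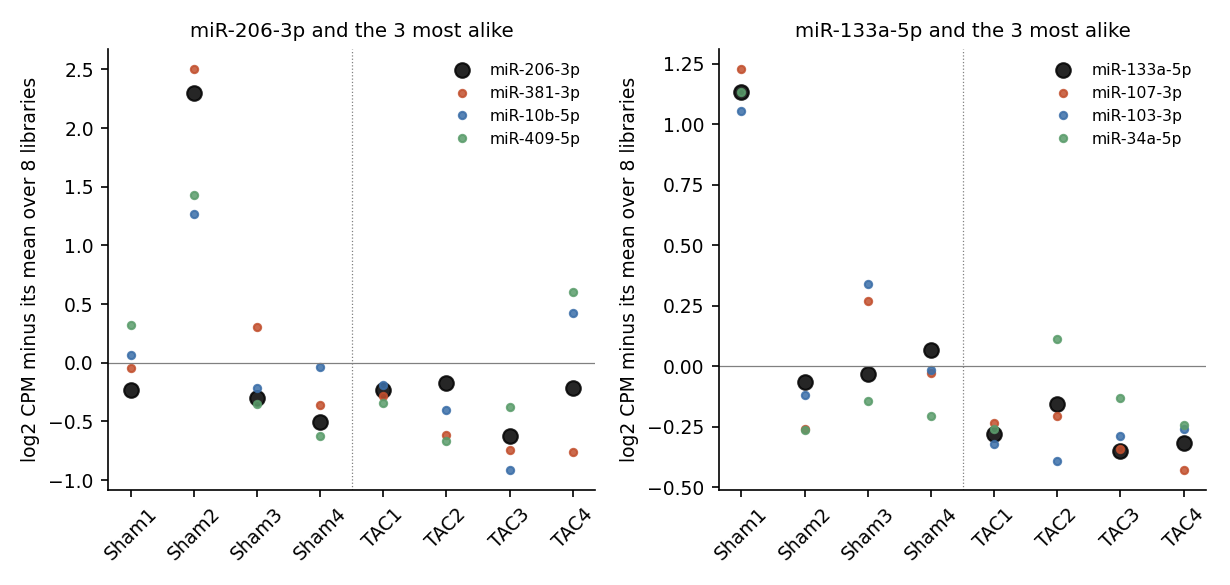
Log2 CPM of miR-206-3p (left) and miR-133a-5p (right) and of the 3 miRNAs most alike each, minus each miRNA's own mean over the 8 libraries. The likeness shows as a common peak in Sham2 on the left and in Sham1 on the right.

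Other miRNAs of heart and striated muscle were read beside the members. The list held miR-208a, miR-208b and miR-499, which lie in introns of myosin heavy chain genes, and miR-486a and miR-486b, with both arms of each. Of 10 names 9 were counted and tested, and 8 were called higher by the reference scaling, against 36.8% of all tested miRNAs. The 9 are not independent, since they include both arms of some hairpins, and miR-486a-5p and miR-486b-5p had nearly the same counts. Their log2 fold changes ran from 0.62 for miR-208a-3p (adjusted p = 0.00915, edgeR, under the fold threshold) to 1.71 for miR-208b-3p, which comes from the slow myosin gene Myh7 (standard error 0.37, adjusted p = 0.00327, edgeR), with a median of 1.02. With TMM 0 of the 9 were called in edgeR, beside 1.35% of all tested miRNAs called higher and 4.48% lower. Of the 9, 2 had an adjusted p below 0.05 and a higher level (4.93% of all tested miRNAs). An unadjusted p below 0.05 was held by 4 (66 of all 223), and the median was 0.33. DESeq2 with its own size factors called 1, miR-208b-3p (log2 fold change 1.08, adjusted p = 0.0192), beside 2.24% of all tested miRNAs called higher and 4.04% lower. TMM gave 1.02 for miR-208b-3p (adjusted p = 0.0800, edgeR), and its groups overlapped in CPM by library total. Sham2 held 71.2 CPM of it, above TAC2 (39.6 CPM) and TAC3 (67.2 CPM). The 2 with an adjusted p below 0.05 by TMM, miR-486a-5p and miR-486b-5p, differed in count by 0.155% to 0.347% per library. They cannot be read as separate results.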

How the data were processed

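Per the labels and the study's methods, total RNA of isolated cardiomyocytes from 4 sham and 4 TAC mice was made into small RNA libraries. The authors deposited 1 table per library with whole-number tag counts per mature miRNA, not normalized. The submitters' processing notes name StringTie 1.3.1 and mm10, while the miRNA aligner, the miRNA reference version and the handling of tags that fit several miRNAs are not given in the sources used here.

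Library sizes in edgeR 4.0.16 (R 4.3.3; glmQLFit and glmQLFTest, group as the only term) were the miRNA totals, those of TAC multiplied by 1 factor. For each of miR-19b-3p and miR-126a-3p the mean CPM in TAC was divided by that in sham, and the factor was the geometric mean of both quotients. p-values were adjusted by Benjamini-Hochberg over 223 miRNAs whose mean exceeded 100 counts. A call needed an adjusted p below 0.05 and a fold above 1.7. Standard errors were obtained by dividing each log2 fold change by the square root of its F. Arm ratios were fitted in limma 3.58.1 with a pseudocount of 0.5, over hairpins with both arms above a mean of 10 counts. Single values were compared by two-sided exact permutation tests over 70 arrangements. Outlying libraries within a group were sought with Dixon's ratio (limit 0.829). Library totals of 4005668 to 7798943 tags leave counting error small for the tested members, beside a biological coefficient of variation of 0.255. miR-1a-1-5p, at 9 to 41 counts, is limited by it.

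TMM, library totals, each reference miRNA alone, a factor per library, totals without the members, DESeq2 1.42.0, other filters, the replicate number as a block and each library left out were tried, and the fits were tested on simulated data. TMM with a library left out or with the block was added after the data had been examined. The members, the lists of muscle and marker miRNAs and the tests were chosen with earlier results of these data known. The text names each member, the counted entries of its families, the muscle list, the reference miRNAs and the 3 tested miRNAs most alike each member. The miRNAs that stood apart in Sham1 or Sham2 were named after their values were seen.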

Additional observations from a re-analysis of the deposited data

Results flagged for a closer look

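Of 30 sets of 4 libraries (each member, ratio and share in each group), 6 held a library that stood apart by Dixon's ratio, and chance alone flags about 1 in 20 groups. None of the 6 was a share. Sham1 was highest of sham for miR-133a-5p, at 2641 CPM with the next at 1260.2, and lowest for miR-133b-3p per 100 tags of miR-133a-3p, at 3.003 with the next at 5.09. Sham2 was highest of sham for miR-206-3p, at 1390.1 CPM with the next at 240.3. The same library was highest for miR-206-3p per 100 tags of miR-133b-3p (44.7, next 8.64) and per 100 tags of miR-1a-3p (1.29, next 0.244). TAC3 was lowest of TAC for miR-206-3p, at 184 CPM with the next at 240.4, a far smaller gap. The 3 values of Sham2 share the count of miR-206-3p and are 1 observation.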

How the results depend on the processing

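The choice of scaling decided most calls. By the reference scaling 82 miRNAs were called higher and 2 lower. The counts became 1 and 23 with library totals, 1 and 16 with totals without the members, 3 and 10 with TMM, and 5 and 9 with DESeq2's own size factors, and 1 was lower with miR-19b-3p alone. The members called higher were then 0, 0, 0 and 1. No filter gave 127 called higher, and no fold threshold 142. The sign turned for miR-133a-3p with library totals (-0.10) and totals without the members (-0.031), and for miR-133a-5p with library totals (-0.64), totals without the members (-0.57), TMM (-0.43) and DESeq2 (-0.40). By construction, a scaling shifts all log2 fold changes together. Leaving out 1 library gave 59 to 106 miRNAs called higher and 1 to 2 lower, with 2 to 3 members, not always the same ones: without Sham2, miR-206-3p was called and miR-133a-3p was not. With TMM, an alternative added after seeing the data, these were 1 to 4 higher, 4 to 9 lower and 0 to 1 members, and miR-133a-5p had -0.019, -0.57, -0.57 and -0.52 without Sham1 to Sham4 and -0.43, -0.50, -0.38 and -0.39 without TAC1 to TAC4. miR-206-3p ran from -0.60 to 0.86, the latter without Sham2, and had 0.26 with TMM without that library. The log2 ratios ran from 0.15 to 0.42 for miR-133b-3p to miR-133a-3p (exact p 0.0286 to 0.114, the higher without any 1 TAC library), from -1.51 to -0.49 for miR-206-3p to miR-1a-3p, from -0.57 to -0.35 for miR-133a-5p to miR-133a-3p, and from -0.17 to 0.25 for miR-1a-1-5p to miR-1a-3p (-0.19 to 0.22 in limma). The shares differed by 3.77 to 6.15 points for the miR-1 seed family, -0.93 to 0.43 for miR-133 and 3.68 to 5.36 for all members, and 3 to 7 arm ratios were called. The study's methods mention 4 pairs of sham and TAC mice, but no label ties the 4 replicate numbers, shared by both groups, to pairs. Deviations of same-numbered libraries correlated at 0.16, -0.37, 0.32 and -0.22, too few values to settle whether they are pairs. The main tests took the libraries as unpaired. An exact sign-flip test within numbers gave p = 0.125 for miR-133b-3p to miR-133a-3p, the smallest it allows. With the number as a replicate block 76 miRNAs were called higher and 3 lower, the members called were still 3, and miR-206-3p had 0.32. With the block and TMM these were 1, 8 and 0, and miR-133a-5p had -0.34. miR-1a-3p and miR-133b-3p were above 0 under every setting tried.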

Other observations

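2 further entries of the miR-1 family were counted at trace level. miR-1a-2-5p, the minor arm of the chromosome 18 hairpin Mir1a-2, had 8, 5, 2 and 0 counts in Sham1 to Sham4 and 2, 4, 8 and 4 in TAC1 to TAC4, where a count of 0 allows up to 3. The minor arm of the chromosome 2 hairpin, miR-1a-1-5p, had more counts than it in each of the 8 libraries. miR-1b-3p had 2, 0, 0 and 0 counts in sham and 4, 2, 0 and 3 in TAC. No fold or test is given for these counts. miR-1b-5p, miR-133b-5p, miR-133c and miR-206-5p were not analysed here.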
